A study of Mus musculus with 20 samples.

Results

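Checkpoint ligands and costimulators are the surface proteins by which myeloid cells restrain or help T cells, and 10 of their genes were followed here: Cd274, Pdcd1lg2, Cd276, Vsir, Havcr2, Lilrb4a, Sirpa, Cd80, Cd86 and Cd40. They were chosen by name, and all 10 were present in the tables of cultured cells (15855 genes) and of tumor cells (15333 genes), which together list 16790 genes. The cultures were macrophages grown for a week in medium conditioned by 4T1.2 mammary cancer cells (4T1.2-CM). B-MF came from sorted bone marrow B cells of young female C57BL/CJ or BALB/CJ mice (2 libraries), and Mo-MF came from bone marrow monocytes handled in the same way (2 libraries). Tumor cells were tumor-associated macrophages (TAM) sorted by flow cytometry from BALB/c mice with 4T1.2 cancer (4 libraries, named library 2 to library 5 after their column names). Chromatin of B-cell precursors from bone marrow (BM) and spleen of untreated mice was read by ATAC-seq in CSF1R+ and CSF1R- cells, with 3 libraries in each of the 4 groups; the labels call these cells macrophages. A sorted TAM gate can hold other myeloid cells, so single cells were classed by their own counts.

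PD-L1 (Cd274) and PD-L2 (Pdcd1lg2) bind PD-1 on activated T cells and dampen signalling from the T-cell receptor. B7-H3 (Cd276) and VISTA (Vsir) are further members of the B7 family with mainly inhibitory roles, while TIM-3 (Havcr2), LILRB4 (Lilrb4a) and SIRP-alpha (Sirpa) are inhibitory receptors of the myeloid cell itself, SIRP-alpha being the receptor for the "do not eat me" signal CD47. CD80 and CD86 bind CD28 to costimulate T cells and CTLA-4 to restrain them, and CD40 is the TNF-family receptor through which helper T cells license antigen-presenting cells.

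Levels are mean corrected counts per cell, that is, molecule counts after the authors had adjusted them for sequencing depth. A cell was called neutrophil-like when S100a8 and S100a9 together reached 300 corrected counts, and Csf1r-positive when it fell short of that and held at least 1 count of Csf1r, the CSF-1 receptor gene that marks macrophages. The median corrected count per cell was 18350 to 19469 in the cultures and 7651 to 8266 in the tumor, and the 2 tables had been normalized separately, so levels are compared only within a table. Csf1r-positive cells made up 99.5% and 99.6% of B-MF, 90.0% and 91.0% of Mo-MF, and 48.5%, 25.1%, 35.0% and 28.4% of tumor libraries 2 to 5. Neutrophil-like cells numbered 3 and 0 in B-MF, 357 and 342 in Mo-MF, and 1110, 1285, 1086 and 1549 in the tumor. In the tumor the markers followed these names: Cxcr2, a neutrophil chemokine receptor, averaged 3.07 to 3.66 counts in neutrophil-like and 0.177 to 0.540 in Csf1r-positive cells, and Cd68, a lysosomal protein of macrophages, 1.90 to 2.39 against 3.61 to 4.52. Of the tumor neutrophil-like cells, 25.3% to 29.8% also held a Csf1r count. In Mo-MF the neutrophil-like cells carried Cxcr2 (9.28 and 10.2 counts) together with macrophage genes at lower levels than in the Csf1r-positive cells, for example Cd68 at 14.6 and 16.5 counts against 34.5 and 34.6, and 95.5% and 94.7% of them held Csf1r. They are therefore named by their S100 rule alone. In B-MF the B-cell transcription factor gene Pax5 was near 0 (at most 0.00434 counts) and C1qa stood at 20.4 and 21.9. Pairs of libraries shared at most 14 cell barcodes in culture and 4 in the tumor.

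**Figure D1:**
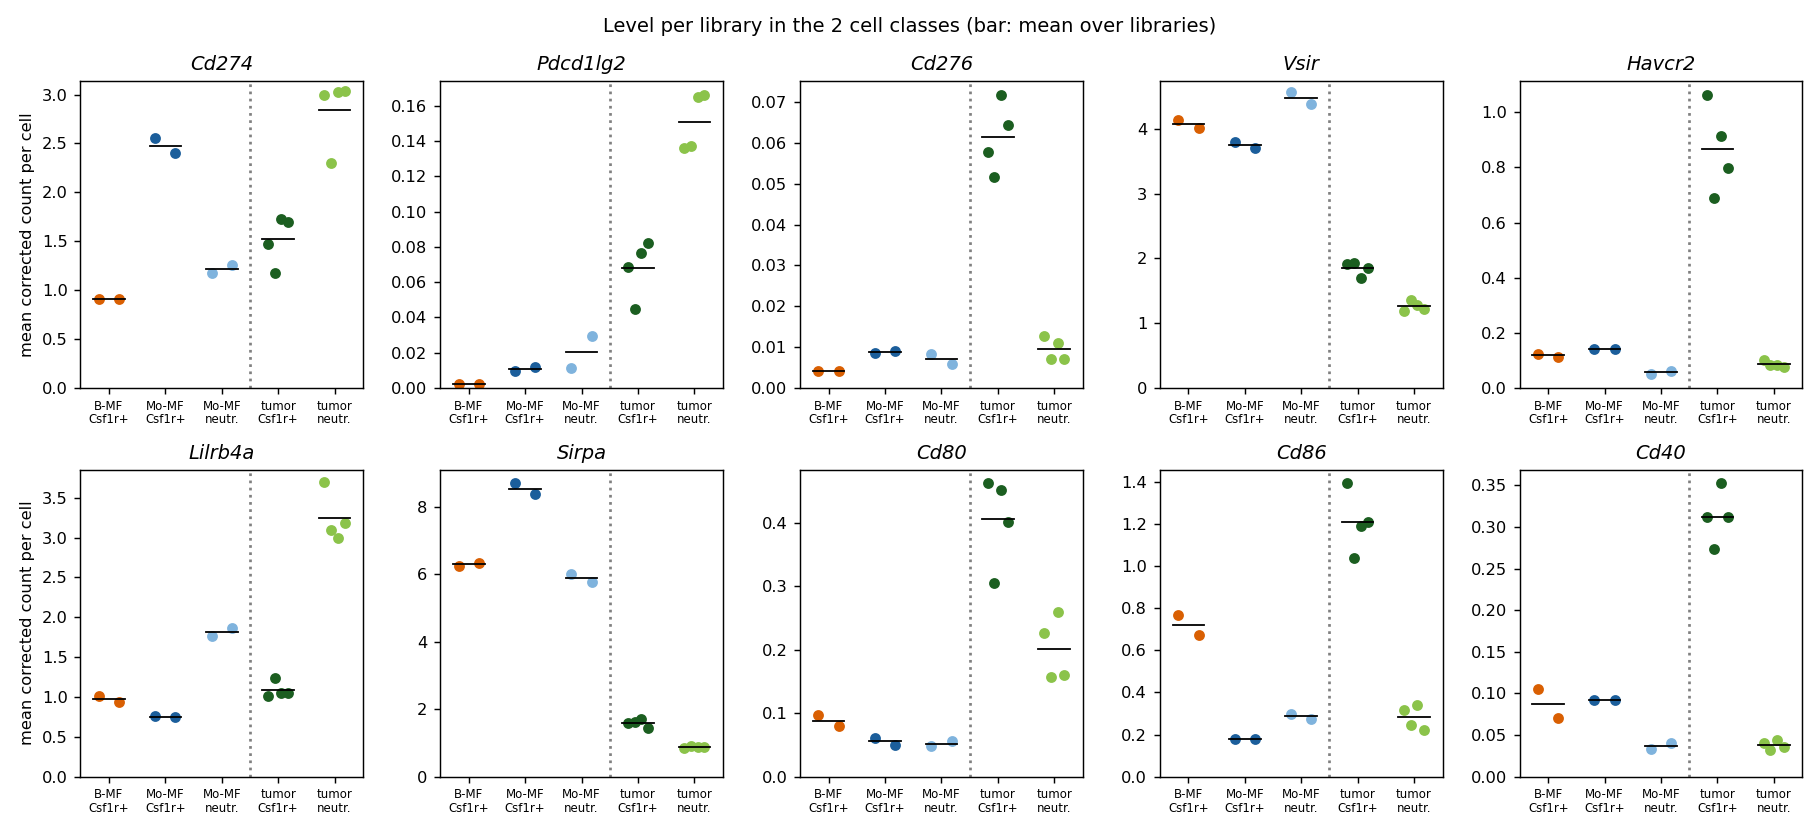
Mean corrected count per cell of each gene (y axis, linear from 0, its own scale in each panel) in Csf1r-positive (Csf1r+) and neutrophil-like (neutr.) cells, 1 point per library with the mean as a bar; the dotted line divides cultures from tumor, which were normalized separately. Cd274 sat at 0.905 and 0.914 in B-MF against 2.40 and 2.56 in Mo-MF, and Cd86 showed the opposite order.

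Cd274 was the member with the clearest shortfall in B-MF. Csf1r-positive cells of the B-MF libraries averaged 0.914 and 0.905 corrected counts, those of Mo-MF 2.56 and 2.40. The groups lay far apart, and each pair of replicates was close. The log2 difference, computed on the mean plus a pseudocount of 0.1, was -1.35 ± 0.0528 (SE, n = 2 and 2; limma adjusted p = 1.12e-06), and only 66 of 8597 genes had a lower one. The share of cells with a Cd274 count was 46.9% and 45.4% in B-MF, against 76.9% and 74.9% in Mo-MF. After every cell was thinned to 10000 counts the shares were 31.5% and 32.3% against 61.5% and 58.9%. Thinning, here and below, acts on counts already corrected for depth, so the original depth was not tested. Positive cells also held fewer copies in B-MF, 1.95 and 1.995 counts each against 3.32 and 3.21. With all cells included the difference was -1.30 ± 0.0523 (adjusted p = 6.54e-07). The labels do not say whether the replicates were separate cultures, so these p-values measure the spread between libraries, which may be technical. All of these values are RNA. For the protein the discussion of the paper states the other direction, more surface PD-L1 on B-MF than on Mo-MF. Its results describe PD-L1 on TAM that carry the B-cell protein CD79 and on B-MF of mice with ID8 ovarian cancer. The cells, and not only the molecule, may therefore differ from those compared here. The paper also names PD-L2 and B7-H3 among upregulated genes of B-MF, without naming the measurement there. Pdcd1lg2 and Cd276 counts were low in both cultures here, under the minimum mean of 0.1 set for testing. In Csf1r-positive cells both were lower in B-MF, at 0.00219 against 0.0105 for Pdcd1lg2 and 0.00418 against 0.00873 for Cd276.

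Within the tumor, Cd274 was higher in neutrophil-like cells. They averaged 2.996, 2.30, 3.03 and 3.03 counts in libraries 2 to 5, against 1.47, 1.18, 1.73 and 1.70 in the Csf1r-positive cells of the same libraries. The classes did not overlap, and the difference had the same direction in 4 of 4 libraries. It came to 0.87 ± 0.0568 on the log2 scale (SE, n = 4 pairs; limma with library as a block, adjusted p = 2.5e-08), and 296 of 5926 genes had a larger one. The shares of positive cells were closer together than the levels, 60.4%, 49.7%, 62.7% and 59.4% against 52.6%, 44.4%, 57.8% and 54.4%. Thinned to 5000 counts they were 54.6%, 44.4%, 57.5% and 54.0% against 40.8%, 38.2%, 45.7% and 42.8%. Positive neutrophil-like cells held 4.63 to 5.11 counts each and positive Csf1r-positive cells 2.65 to 3.13. Of the B and T/NK cells gated below, which can express PD-L1 themselves, 17.6% and 26.5% held a Cd274 count.

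In the Mo-MF cultures the order of the classes was the other way round. Cd274 averaged 1.17 and 1.25 counts in neutrophil-like cells and 2.56 and 2.40 in Csf1r-positive cells, a log2 difference of -0.97 ± 0.0717 (n = 2 pairs; adjusted p = 3.46e-04). That fit has 1 residual degree of freedom per gene and borrows the rest of its spread from all genes. Macrophage genes were lower in the neutrophil-like cells of both. The summed level of 7 macrophage markers was 44.3 and 47.8 counts against 88.7 and 87.3 in the Csf1r-positive cells of Mo-MF, and 5.58 to 8.71 against 20.99 to 34.8 in the tumor. Among them C1qb, a complement gene of macrophages, was at 8.96 and 10.1 counts against 15.6 to 16.5 in the cultures, and at 0.855 to 1.65 against 1.76 to 5.79 in the tumor. The part of these differences in the Cd274 result was not tested.

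Pdcd1lg2 was close to the limit of detection in the cultures. Among Csf1r-positive cells, 0.211% and 0.207% of B-MF and 0.917% and 0.9994% of Mo-MF held a count, and mean levels of 0.00211 and 0.00226 against 0.0094 and 0.0116 lay under the minimum of 0.1 set for testing. With no minimum the log2 difference was -0.11 (adjusted p = 0.0352), and -0.12 with all cells (adjusted p = 0.0508). In the tumor it passed that minimum and, like Cd274, was higher in neutrophil-like cells. These averaged 0.136, 0.137, 0.165 and 0.166 counts, and Csf1r-positive cells 0.0688, 0.0448, 0.0766 and 0.0821. The groups did not overlap, and the log2 difference was 0.58 ± 0.057 (adjusted p = 1.05e-06). Its size depends on the pseudocount, being 1.07 with 0.01 and 0.11 with 1. The shares of positive cells, 8.83%, 7.78%, 10.6% and 10.9% against 5.45%, 3.79%, 5.62% and 5.86%, compare with 10.48% in the B gate and 29.4% in the T/NK gate described below. B and T cells can express PD-L2 themselves, so no cell type here gave its level from free RNA.

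Tumor cells that held Pdcd1lg2 more often held Cd274 as well. Among neutrophil-like cells with a Pdcd1lg2 count, 88.8%, 81.0%, 91.3% and 83.9% also held Cd274, compared with 57.6%, 47.0%, 59.3% and 56.4% of those without. In Csf1r-positive cells the shares were 71.4%, 63.6%, 83.0% and 84.0% against 51.5%, 43.7%, 56.3% and 52.6%, the positive group being 22 to 84 cells. The shares with Pdcd1lg2 were above those without it in every library of both classes. The same direction held for Cd80, Cd86 and Cd40 in every library of both classes, so it was not particular to Pdcd1lg2. In Csf1r-positive cells of library 2, for example, 58.2% of cells with a Cd86 count held Cd274, against 42.3% of those without. The deposited counts were already corrected for depth, so the original depth of the compared cells was not tested. Cells of a library are not replicates, so these shares are a description.

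**Figure D2:**
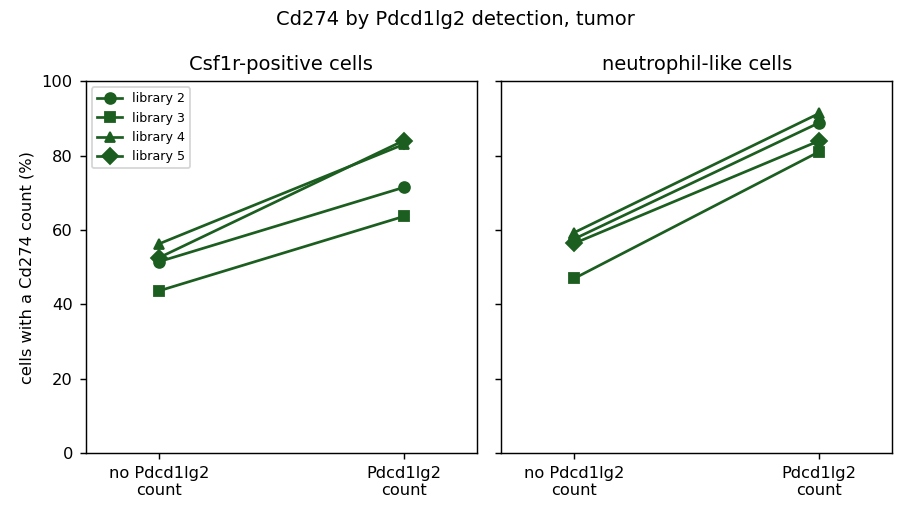
Share of tumor cells with a Cd274 count (y axis, %) among cells without and with a Pdcd1lg2 count, in Csf1r-positive (left) and neutrophil-like cells (right), 1 line per library. Each of the 8 lines rises, from 43.7% to 59.3% without Pdcd1lg2 to 63.6% to 91.3% with it.

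Cd274 and Pdcd1lg2 are neighbours on mouse chromosome 19, and their promoters looked different in B-cell precursors. A peak within 1 kb of the Cd274 start (gene at chr19:29367455-29388095, mm10, plus strand) was called in all 12 ATAC-seq libraries, at 10.8- to 12.6-fold enrichment over background. No library had a peak at the start of Pdcd1lg2. The sequences directly before the RefSeq starts (GRCm38.p6, plus strand) are given here since they belong to a promoter with and a promoter without a called peak in the same ligand pair. For Cd274 the stretch is the part free of the neighbouring gene Plgrkt, at chr19:29367391-29367437, and for Pdcd1lg2 it is chr19:29410669-29410918. The Cd274 peak region, chr19:29367001-29367560, also covers Plgrkt bases, so it cannot be assigned to Cd274 alone. Capitals mark the GC box, GGGCGG.
Cd274: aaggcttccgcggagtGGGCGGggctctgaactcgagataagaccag
Pdcd1lg2: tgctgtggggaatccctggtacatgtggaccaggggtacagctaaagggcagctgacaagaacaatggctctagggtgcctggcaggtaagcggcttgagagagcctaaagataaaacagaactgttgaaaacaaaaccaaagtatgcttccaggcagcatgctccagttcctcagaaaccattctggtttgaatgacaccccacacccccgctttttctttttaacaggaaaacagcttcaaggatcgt
The GC box, read on either strand, occurred in the 250 bases before the start of Cd274 (1 match), Vsir (2) and Cd276 (3) and had no match at Pdcd1lg2, Cd80 or Havcr2. A peak lay within 1 kb of the RefSeq start in all 12 libraries at Cd274 and Vsir, in 3 each at Cd80 and Havcr2, and in none at Cd276 or Pdcd1lg2, so that the GC box was found with and without a peak. It occurs in 32.7% of 32851 RefSeq promoters. CpG dinucleotides in these windows numbered 11 in Cd274, 9 in Vsir, 29 in Cd276, 3 in Pdcd1lg2, 3 in Cd80 and 2 in Havcr2, against a median of 6 over all promoters. The interferon-stimulated response element (2.98% of promoters) and the motifs TTCNNNGAA (gamma-activated sequence, 7.02%) and GGGANTTTC (NF-kappaB, 0.941%) had no match in any of these 6 windows. The PU.1 core GAGGAAG (10.6%) matched once in Cd276 and once in Havcr2. RefSeq promoters were matched for these 6 members, and those of Lilrb4a, Sirpa, Cd86 and Cd40 were not analysed here.

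Among the other B7 relatives, Cd276 was detected in few Csf1r-positive cells. It was held by 0.422% and 0.415% of Csf1r-positive B-MF and 0.688% and 0.836% of Mo-MF. In the tumor its level was 0.0578, 0.0516, 0.0718 and 0.0645 counts in Csf1r-positive cells and 0.0126, 0.007, 0.0111 and 0.0071 in neutrophil-like cells. These ranges are apart, but the gene was below the minimum for testing in every comparison. With no minimum, its tumor difference was -0.56 (limma adjusted p = 1.16e-04). Both levels lay under the pseudocount of 0.1, which shrinks such a difference, so its size is not compared with that of other genes. With the 4 libraries pooled, 5.48% of Csf1r-positive and 0.716% of neutrophil-like cells held a count. Of 210 cells in the B gate none held a count, which allows a share of cells with a count of up to 1.43% (counting error only) and sets no limit on the cells that express the gene.

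Vsir was broadly present and differed little between the cultures. In Csf1r-positive cells it averaged 4.14 and 4.02 counts in B-MF, against 3.80 and 3.70 in Mo-MF, with 92.6% to 94.3% of cells positive. The log2 difference of 0.12 (95% interval 0.00107 to 0.234) did not pass the test (adjusted p = 0.103), though it did with several alternatives. In the tumor it fell from 1.91, 1.93, 1.70 and 1.86 counts in Csf1r-positive cells to 1.18, 1.36, 1.28 and 1.22 in neutrophil-like cells, a difference of -0.52 ± 0.0595 (adjusted p = 4.41e-06). That is close to the median over all genes of -0.61 in the same comparison. In Mo-MF it pointed the other way, with 4.57 and 4.38 counts in neutrophil-like cells against 3.80 and 3.70 (0.25 ± 0.0596, adjusted p = 0.0138).

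Turning to the inhibitory receptors, Havcr2 was higher in Csf1r-positive than in neutrophil-like cells of the tumor. Csf1r-positive tumor cells averaged 1.06, 0.689, 0.913 and 0.797 counts and neutrophil-like cells 0.101, 0.0841, 0.0829 and 0.0755. The log2 difference of -2.36 ± 0.0716 (adjusted p = 7.99e-11) was 5.15-fold on the plus 0.1 scale, and 56 of 5926 genes had a lower one. With pseudocounts of 0.01 and 1 it was -3.18 and -0.78. The shares were 46.4%, 36.8%, 43.5% and 41.6% against 6.85%, 4.90%, 5.89% and 4.97%, and 0.952% of B-gate cells held a count. Within Csf1r-positive tumor cells Havcr2 was unevenly spread, with 24.6% of the 670 cells holding at least 5 C1qa counts positive and 47.2% of the other 3141. In the cultures it was near the minimum, at 0.124 and 0.113 counts in B-MF, against 0.141 and 0.142 in Mo-MF (-0.14 ± 0.0512, adjusted p = 0.0589), a difference that passed the test with several alternatives.

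Lilrb4a was the tested member most raised in neutrophil-like cells, in the tumor as in the Mo-MF cultures. In the tumor it averaged 3.70, 3.09, 2.99 and 3.18 counts there and 1.01, 1.24, 1.05 and 1.04 in Csf1r-positive cells. Every neutrophil-like value was more than any Csf1r-positive value, and the log2 difference was 1.49 ± 0.0763 (adjusted p = 2.75e-09), with 112 genes above it. From 78.6% to 86.0% of neutrophil-like cells were positive, against 50.5% to 56.8%, and 11.4% of B-gate cells held a count. In Mo-MF the levels were 1.77 and 1.86 against 0.755 and 0.749 (1.17 ± 0.0622, adjusted p = 2.1e-04). Between the cultures it was slightly higher in B-MF, at 1.01 and 0.938 counts in Csf1r-positive cells against 0.755 and 0.749 (0.33 ± 0.0537, adjusted p = 0.0021). With all cells, where the difference was 0.22 ± 0.0546 (adjusted p = 0.0152), leaving out Mo-MF replicate 1 or replicate 2 gave 0.22 and 0.21 (adjusted p = 0.1003 and 0.13), a fit in which the lone Mo-MF library is assumed to vary like the B-MF libraries. Lilrb4a has a near-identical neighbour, listed as Lilr4b, and reads can be split between them. Lilr4b was also higher in tumor neutrophil-like cells (1.24 ± 0.0622), but in Csf1r-positive B-MF it was lower than in Mo-MF (-0.17 ± 0.0501, adjusted p = 0.0322), so that the small Lilrb4a difference between the cultures is uncertain.

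Sirpa was found in nearly every cultured cell. Csf1r-positive B-MF averaged 6.24 and 6.34 counts and Mo-MF 8.70 and 8.37, a log2 difference of -0.43 ± 0.0502 (adjusted p = 3.81e-04). In the tumor it was 1.58, 1.63, 1.70 and 1.44 in Csf1r-positive cells and 0.85, 0.893, 0.882 and 0.875 in neutrophil-like cells (-0.79 ± 0.0563, adjusted p = 5.45e-08). In Mo-MF the neutrophil-like cells were also lower, at 6.02 and 5.76 against 8.70 and 8.37 (-0.53 ± 0.0594, adjusted p = 9.62e-04). Both class differences were not far from the medians over all genes of -0.61 in the tumor and -0.36 in Mo-MF. Among tumor Csf1r-positive cells, those with at least 5 C1qa counts averaged 2.26 counts of Sirpa and the others 1.44. In the B gate 2.86% of cells held it.

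Of the costimulators, Cd86 was the mirror image of Cd274 in the cultures. Csf1r-positive cells averaged 0.770 and 0.674 counts in B-MF, against 0.179 and 0.180 in Mo-MF. The ranges were far apart, with a log2 difference of 1.55 ± 0.0647 (adjusted p = 1.51e-06), 2.94-fold on the plus 0.1 scale, and 29 of 8597 genes had a larger one. With a pseudocount of 1 it was 0.55. The share of positive cells was 40.4% and 35.0% in B-MF, against 11.8% and 11.4% in Mo-MF, and 27.2% and 23.9% against 7.66% and 6.30% after thinning. Within B-MF the opposite levels did not show as opposite detection in single cells, since 48.2% and 45.7% of Cd86-positive cells held Cd274, compared with 45.9% and 45.2% of Cd86-negative cells. In the tumor Cd86 was higher in Csf1r-positive cells, at 1.40, 1.04, 1.19 and 1.21 counts, than in neutrophil-like cells, at 0.319, 0.248, 0.340 and 0.223 (-1.78 ± 0.0729, adjusted p = 4.85e-10). The neutrophil-like shares, 13.8% to 19.2%, were close to the 17.6% of the T/NK gate (95% interval 9.47% to 28.8%) and are not read as expression. Whether T/NK-gate cells express the costimulators themselves was not tested, so such shares do not show absence either. In Mo-MF the neutrophil-like cells were the higher class, at 0.300 and 0.272 counts against 0.179 and 0.180 (0.47 ± 0.0642, adjusted p = 0.00189), a difference of 0.12 with a pseudocount of 1.

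Cd80, the second CD28 ligand, was low in the cultures, with 0.0971 and 0.0792 counts in Csf1r-positive B-MF and 0.0612 and 0.0498 in Mo-MF, under the minimum for testing. In tumor Csf1r-positive cells it stood at 0.463, 0.305, 0.452 and 0.401 counts and in neutrophil-like cells at 0.226, 0.157, 0.259 and 0.160. The classes did not overlap (-0.75 ± 0.0641, adjusted p = 2.81e-07), but the difference was again not far from the median of all genes. The neutrophil-like shares were 10.4% to 16.4%, those of the B and T/NK gates 2.38% and 16.2%. It too was scarcer in the C1qa-rich cells, 16.1% of which held it against 33.9% of the others.

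Cd40 in the cultures was at 0.105 and 0.0703 counts in Csf1r-positive B-MF and 0.0917 and 0.0926 in Mo-MF, ranges that overlapped. In the tumor it averaged 0.312, 0.274, 0.353 and 0.312 in Csf1r-positive cells and 0.0405, 0.0319, 0.0442 and 0.0362 in neutrophil-like cells. The log2 difference was -1.58 ± 0.0539 (adjusted p = 1.4e-10), and 485 genes had a lower one. With pseudocounts of 0.01 and 1 it was -2.74 and -0.34. The neutrophil-like shares of 3.33%, 2.18%, 3.59% and 2.78% lay under the 5.88% of the T/NK gate (4 of 68 cells, 95% interval 1.63% to 14.4%, median 8418 corrected counts per cell against 7546 to 7571) and are not read as expression.

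**Figure D3:**
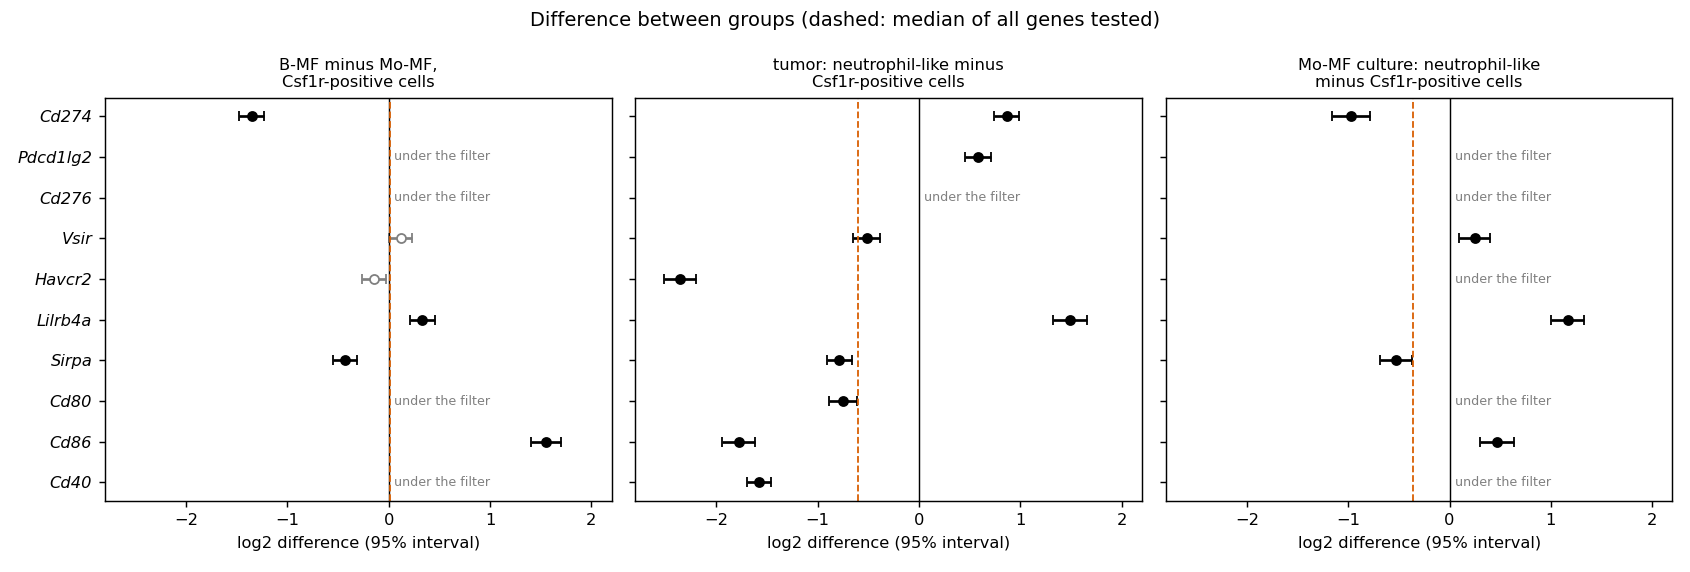
Log2 difference on the mean plus 0.1 scale (x axis) with its 95% interval for each member in 3 limma comparisons, filled where the adjusted p was under 0.05 and open where it was not; dashed lines are the medians over all genes tested, and members under the minimum level are named as such. Cd274, Vsir and Cd86 lie on opposite sides of 0 in the tumor and Mo-MF panels, and Lilrb4a and Sirpa on the same side.

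Counted together, 6 members passed the minimum level between B-MF and Mo-MF in Csf1r-positive cells, of which 2 were higher in B-MF (Cd86 and Lilrb4a), 2 lower (Cd274 and Sirpa) and 2 not called. Of all 8597 genes tested, 20.8% were called higher and 16.9% lower. With all cells the 6 members gave the same counts, beside 22.6% and 16.9% of 8633 genes. In the tumor all 9 members tested were called, 3 higher and 6 lower in neutrophil-like cells, but so were 17.6% and 72.5% of 5926 genes, and being called says little there. In Mo-MF 5 were tested, 3 higher and 2 lower, beside 18.7% and 62.6% of 8387 genes. The median log2 difference of the tested members was -0.01, -0.75 and 0.25 in Csf1r-positive cultures, tumor and Mo-MF, and that of all genes 0.01, -0.61 and -0.36. With each cell scaled to the same total, the median of all genes in the Mo-MF comparison moved by 0.13, to -0.23.

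Other cells of the tumor gate showed where the members were richest. Gates were set on cells under the S100 threshold: a dendritic gate (Ccr7 and Fscn1, 97 cells), a B gate (Cd79a and Ms4a1 without Csf1r, 210 cells) and a T/NK gate (Cd3e without Csf1r, 68 cells). Their libraries are pooled, with exact binomial intervals that cover counting error only. Of the dendritic-gate cells, 89.7% (95% interval 81.9% to 94.9%) held Cd274, 44.3% (34.2% to 54.8%) Pdcd1lg2, 57.7% (47.3% to 67.7%) Cd80, 82.5% (73.4% to 89.5%) Cd86 and 76.3% (66.6% to 84.3%) Cd40. These 5 shares were above those in both the Csf1r-positive and the neutrophil-like cells, while the shares for Vsir (9.28%), Havcr2 (5.16%), Lilrb4a (17.5%) and Sirpa (19.6%) were under those in Csf1r-positive cells. B-gate cells were rich in Cd86 (61.4%) and held Cd40 in 19.1%. In the T/NK gate, Havcr2 was held by 33.8% of cells (22.8% to 46.3%); TIM-3 is also a receptor of exhausted T cells. In alternatives added after the data were seen, leaving out the cells that hold B-cell or dendritic marker pairs, or the neutrophil-like cells with a Csf1r count, gave 3 members higher and 6 lower as before.

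**Figure D4:**
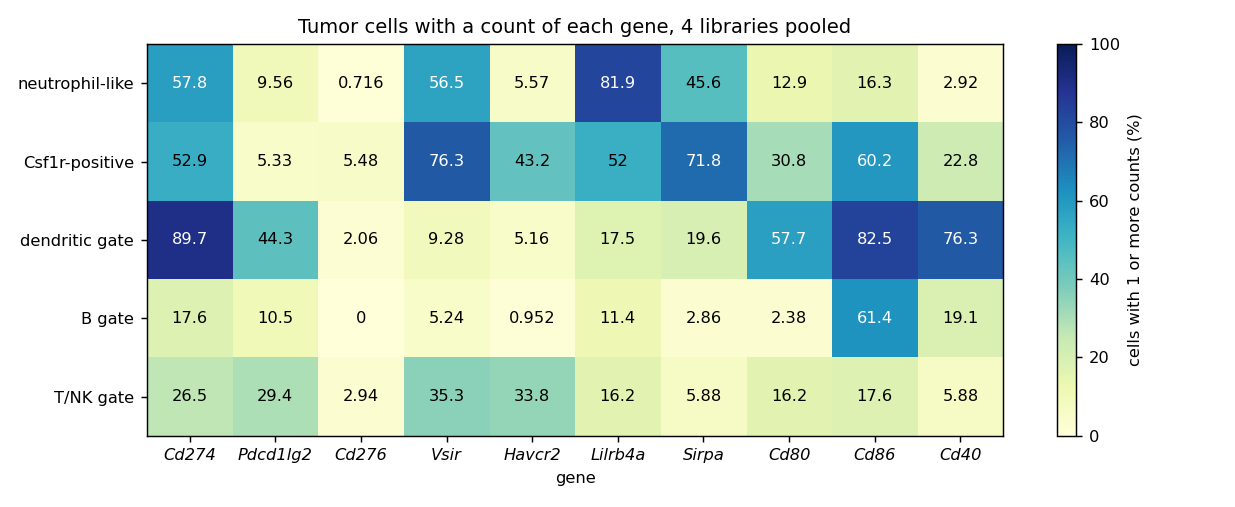
Share of tumor cells with 1 or more counts (%, colour and number) for each member (x axis) in 5 kinds of cells (rows), with the 4 libraries pooled. The dendritic gate holds Cd274 in 89.7% of its cells and Cd40 in 76.3%, and neutrophil-like cells hold Lilrb4a in 81.9% and Cd40 in 2.92%.

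The related genes are counted beside the shares of all genes given above, 20.8% higher and 16.9% lower in Csf1r-positive B-MF, 17.6% and 72.5% in tumor neutrophil-like cells, and 18.7% and 62.6% in those of Mo-MF. Over the 5 lists with more than 1 gene tested, the median log2 difference lay between -0.14 and 0.12 in the cultures, -0.86 and -0.08 in the tumor, and -0.74 and 0.24 in Mo-MF, where all genes had 0.01, -0.61 and -0.36. Other B7 and TNF-family costimulators had 5 of 15 members testable between the Csf1r-positive cultures, 1 higher in B-MF (Icam1, an adhesion molecule, 0.48 ± 0.0652) and 1 lower (Tnfsf14, the cytokine LIGHT, -0.23 ± 0.0705). In the tumor 4 were testable and 3 were lower in neutrophil-like cells, close to the share of all genes, led by Pvr, the ligand of TIGIT and CD226 (-1.58 ± 0.0634), and Cd48 (-1.48 ± 0.0563). In Mo-MF 5 were testable, of which 1 was higher in neutrophil-like cells (Tnfsf14, 1.11 ± 0.0594) and 4 were lower. The list drawn up as other inhibitory receptors of myeloid cells was divided, and the function of its members was not tested. Of 10 tested between the cultures 3 were higher in B-MF and 4 lower, with Cd33, a sialic acid receptor, at 0.93 ± 0.0485 (0.36 ± 0.0638 with all cells) and Cd200r1, the receptor of CD200, at -0.41 ± 0.0485. In tumor neutrophil-like cells 5 of 12 were higher, Cd33 (1.91 ± 0.104) and Cd300lf (1.52 ± 0.0777) among them, and 6 lower, including the inhibitory Fc receptor Fcgr2b (-1.99 ± 0.0519). Mo-MF gave 6 higher and 5 lower of 12, with Pilra at 3.39 ± 0.0657 and Siglece at 2.25 ± 0.0668.

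Of 9 partner ligands and receptors made by myeloid cells, 4 were lower in B-MF, 1 was higher and 4 were not called, with Fn1, fibronectin, at -2.60 ± 0.0582, Apoe, the lipoprotein that is also a ligand of LILRB4, at -1.89 ± 0.0525 and Cd200 at -1.34 ± 0.0542. In tumor neutrophil-like cells 5 of 7 were lower and 2 higher, and in Mo-MF 5 of 9 were lower and 4 higher, the lower ones at about or under the share of all genes. Among signalling partners, 1 of 10 was called between the cultures, Traf1 (-0.56 ± 0.0643), an adaptor of TNF-family receptors. Cmtm6, which keeps PD-L1 at the cell surface, was higher in neutrophil-like cells of the tumor (0.96 ± 0.0616) and of Mo-MF (0.69 ± 0.0705), where 1 of 7 and 3 of 10 signalling partners were higher and 5 and 4 lower. Of 14 interferon and NF-kB regulators, 3 were higher in B-MF and 1 lower. The higher included Socs3 (0.68 ± 0.077, and 0.43 ± 0.0787 with all cells) and Relb (0.42 ± 0.0647). In tumor neutrophil-like cells 4 of 15 were higher, led by Irf1, a transcription factor induced by interferon-gamma (0.89 ± 0.0574), and 6 lower. In Mo-MF 8 of 14 were higher, led by Socs3 (1.98 ± 0.0646), and 2 lower. Of 7 T-cell partner receptors only Cd28 could be tested in the cultures, and this receptor of CD80 and CD86 was higher in B-MF, at 1.48 and 1.58 counts in Csf1r-positive cells against 0.41 and 0.41 (1.67 ± 0.0525, adjusted p = 3.6e-07), while no T-cell gene of the marker list exceeded 0.00306 counts in these cells. It was lower in Mo-MF neutrophil-like cells (-0.89 ± 0.0818), and none of the 7 reached the minimum in the tumor.

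The genes most like each member across single Csf1r-positive tumor cells were sought by Pearson correlation of the deposited log values, averaged over 4 libraries (3811 cells, 7879 genes). For Cd274 they were Basp1 (mean r = 0.43), Hilpda (0.43) and Gbp2 (0.42). For Havcr2 they were Tgm2 (0.44), Runx3 (0.42) and Ece1 (0.38), and the same 3 genes led for Cd80, at 0.25 to 0.27. Runx3 (0.34) also led for Cd86. For Lilrb4a the closest was its neighbour Lilr4b (0.42), for Sirpa Clec4a1 (0.28) and for Cd40 Ms4a4c (0.24). In the cultures Lilr4b was again the closest to Lilrb4a (0.25 in B-MF and 0.31 in Mo-MF), whereas Cd274 had Psap (0.35) in Mo-MF and Tnfaip2 (0.16) in B-MF, and Cd86 had Clec4n (0.32) in B-MF. The points of each correlation are cells of shared libraries, and weak values in sparse counts are not read further.

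In the chromatin of untreated B-cell precursors, 7 members had a peak within 1 kb of any annotated protein-coding start in every library of BM CSF1R+, 7 in BM CSF1R-, 7 in spleen CSF1R+ and 6 in spleen CSF1R-, beside 58.7%, 58.1%, 52.7% and 51.8% of 21866 protein-coding genes. Cd274, Cd276, Vsir, Lilrb4a, Cd86 and Cd40 had one in all 12 libraries. Those of Cd276 lay at alternative starts inside the gene, with the strongest summits 15385 to 17972 bases from its 5′ end, and no library had a peak within 1 kb of that end. Sirpa lacked it in 2 of 3 spleen CSF1R- libraries, and its peaks reached 2.72- to 3.64-fold in spleen CSF1R+ against 4.97- to 5.89-fold in BM. Havcr2 had a promoter peak in 2 BM CSF1R+ libraries and 1 spleen CSF1R- library, and Cd80 in 3 libraries of 3 groups, at a start downstream of its 5′ end. The fold enrichment was higher in all 6 spleen libraries than in all 6 BM libraries at Lilrb4a (11.97 to 16.6 against 5.86 to 8.79) and Cd40 (13.8 to 17.3 against 10.3 to 13.5), which was so for 24.9% of the 11129 genes with a promoter peak in all libraries. The reverse order was found for 4.82% of these genes and for none of the 6 members among them, so enrichment ran higher in spleen for genes in general.

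**Figure D5:**
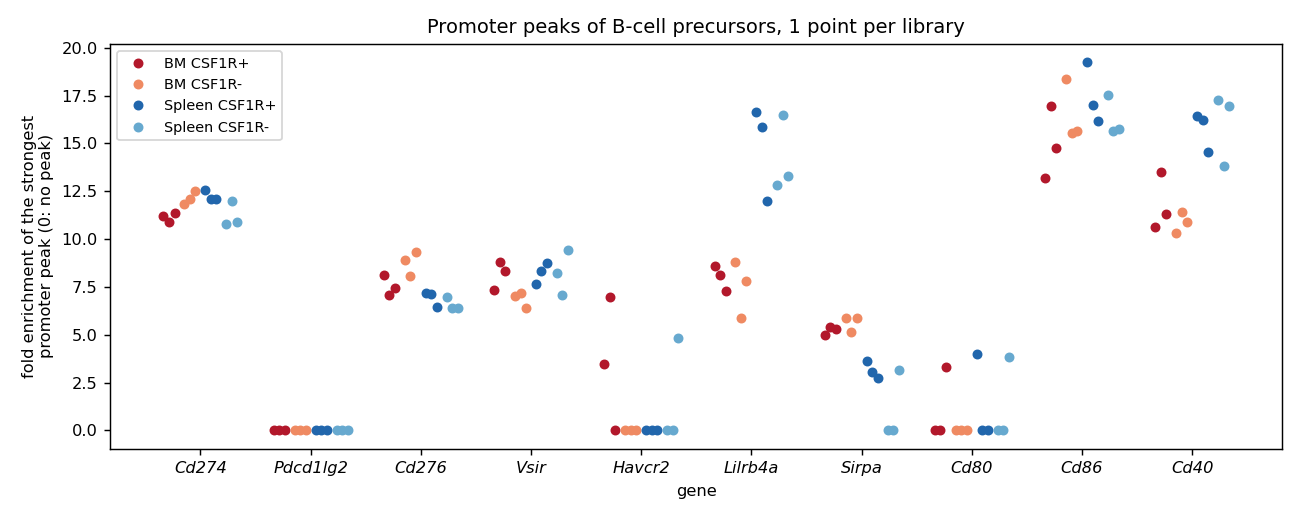
Fold enrichment of the strongest ATAC-seq peak within 1 kb of a start of each member (y axis, linear; 0 where no peak was called), 1 point per library and 3 libraries per group. All 12 libraries have a peak at Cd274, at 10.8- to 12.6-fold, and none at Pdcd1lg2, the peaks of Cd276 lie at alternative starts, and the spleen libraries lie above the BM libraries at Lilrb4a and Cd40.

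Within 10 kb of the 10 genes there were 86 peak regions, of which 32 were open in all 12 libraries, beside 30.1% of 101333 regions genome-wide. Pdcd1lg2 had 16 regions though no peak was called at its start. Those at chr19:29418375-29419287 and chr19:29430423-29431695 (mm10, inside the gene, centred 7912 and 20140 bases from its start) were open in all 12 libraries, and the one at chr19:29417920-29418214, centred 7148 bases from the start, was open in all 6 spleen libraries and no BM library, as were 2.01% of regions. Regions open in all BM libraries and no spleen library (11.2%) lay before Vsir at chr10:60341592-60341871 and inside Cd80 at chr16:38457218-38457462. A region inside Vsir, chr10:60369500-60369724, was called in 3 of 3 BM CSF1R- libraries and in no BM CSF1R+ or spleen library, a pattern between the BM groups that 0.503% of regions had. No region near a member was open in every BM CSF1R+ library and in no BM CSF1R- library, which was so for 0.613% of all regions.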

How the data were processed

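Single-cell libraries were made by the study with a 10x Chromium 3' kit, processed with Cell Ranger and corrected for depth with SCTransform. The deposited values were the natural log of 1 plus the corrected count, in a table of the cultures and a table of the tumor, each normalized by the authors on its own. Corrected counts were recovered as whole numbers (largest relative distance 6.2e-15 in the cultures and 5.6e-07 in the tumor). For ATAC-seq, the authors trimmed reads with cutadapt, aligned them to mm10 with BWA and called peaks in each library with MACS2, and the deposited peak lists give fold enrichment as a ratio, -log10 q and the summit.

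Groups came from the sample titles. The tumor columns could not be matched to single titles; their 4 prefixes, as many as the group has samples, were taken as its 4 libraries and are named by their own numbers. Library means were compared with limma 3.58.1 (R 4.3.3) on log2(mean + 0.1), leaving out genes whose mean over the libraries of a fit was under 0.1; p-values were adjusted over all genes by Benjamini-Hochberg and called under 0.05. Library was a block where classes of the same libraries were compared. Cell-level tests were not used, and no doublet caller was run. The fits were tested on simulated data. Promoter peaks overlapped 1000 bases on either side of a protein-coding start (GENCODE M21), with no test. All 10 members were named, and of each related list at most 4 called genes with the largest difference. Lilrb4b was matched to the symbol Lilr4b. Members, lists and tests were chosen with earlier results of these data known. Alternatives changed the pseudocount, minimum, scaling, class thresholds, block, promoter window and libraries. A few genes are not reported here. Python 3.11.15 was used.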

Additional observations from a re-analysis of the deposited data

Results flagged for a closer look

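Neutrophil-like and Csf1r-positive cells differed in opposite directions in the tumor and in the Mo-MF cultures for 3 of the 5 members tested in Mo-MF, in every library. These were Cd274 (log2 difference 0.87 in the tumor and -0.97 in Mo-MF), Vsir (-0.52 and 0.25) and Cd86 (-1.78 and 0.47, the latter from 0.06 to 0.64 over the alternatives). The share of all genes with such a change of direction was not computed, so the count is not read as a trait of the members. By library, the Cd274 differences were 0.98, 0.91, 0.78 and 0.80 in the tumor and -1.06 and -0.88 in Mo-MF. The medians over all genes were -0.61 in the tumor and -0.36 in Mo-MF, and Vsir lay above both. The neutrophil-like classes were also unlike, with Csf1r held by 25.3% to 29.8% of them in the tumor and by 95.5% and 94.7% in Mo-MF. The tables were normalized separately, so the difference between them was not tested.

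Among 30 sets of 4 tumor libraries (10 members in 3 classes), 3 held a library far from the others, where chance flags about 1 set in 20. Cd274 in neutrophil-like cells was lowest in library 3, at 2.30 counts against 2.996 to 3.03. Lilrb4a in Csf1r-positive cells was highest in library 3, at 1.24 against 1.01 to 1.05. Sirpa in the remaining tumor cells was highest in library 2, at 0.936 against 0.643 to 0.688. Library 3 also had the smallest share of Csf1r-positive cells (25.1%).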

How the results depend on the processing

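Across the alternatives none of the 6, 6, 9 and 5 members tested in the 4 comparisons (all cells, Csf1r-positive cells, tumor, Mo-MF) reversed its direction. Sizes moved by over 1.5 times, chiefly with the pseudocount and with means of the deposited log values, which are on another scale. The ranges were 0.06 to 1.07 for Pdcd1lg2, -2.74 to -0.24 for Cd40, -3.18 to -0.55 for Havcr2, -2.08 to -0.65 for Cd86, -0.99 to -0.18 for Cd80, 0.40 to 1.11 for Cd274, 0.94 to 1.66 for Lilrb4a, -1.01 to -0.45 for Sirpa and -0.58 to -0.33 for Vsir in the tumor. In Mo-MF they were 0.06 to 0.64 for Cd86, -1.33 to -0.53 for Cd274, 0.53 to 1.28 for Lilrb4a, -0.79 to -0.39 for Sirpa and 0.19 to 0.39 for Vsir. Between the Csf1r-positive cultures they were 0.39 to 1.95 for Cd86, -1.44 to -0.76 for Cd274, -0.24 to -0.02 for Havcr2, 0.15 to 0.38 for Lilrb4a and 0.07 to 0.14 for Vsir, and with all cells 0.39 to 1.91, -1.38 to -0.72, -0.20 to -0.02, 0.11 to 0.33 and 0.08 to 0.13. All 149 tumor and all 64 Mo-MF values kept their side of the threshold where a test was possible. Among the 76 and 88 values of the culture comparisons (all and Csf1r-positive cells), 2 lost significance (all cells), and 8 and 11 gained it. The losses were Lilrb4a without Mo-MF replicate 1 or 2, and the gains were Vsir and Havcr2. Members called higher in B-MF with all cells ranged from 1 to 3 when a replicate was left out. With a minimum mean of 0.5, which tests fewer genes, 3 members were lower in tumor neutrophil-like cells in place of 6, and with no minimum, which tests more, 4 were lower in Mo-MF neutrophil-like cells in place of 2. The replicate numbers pair the cultures by number only (correlation of deviations 0.126 and 0.163). With a replicate block, 2 members were higher and 2 lower with all cells, and 2 and 3 in Csf1r-positive cells, where Havcr2 was added (adjusted p = 0.0163). Without the library block, counts in the tumor (3 higher, 6 lower) and Mo-MF (3 and 2) were as before. Leaving out a Mo-MF library left no residual degrees of freedom for the class comparison, so those values have no test. Promoter peak counts stayed within 1.5 times of 7, 7, 7 and 6. Pdcd1lg2, Cd276, Cd80 and Cd40 lay under the minimum in the cultures, although those cells had more counts than tumor cells. With no minimum they had adjusted p = 0.0508, 0.0835, 0.0665 and 0.892 with all cells, and 0.0352, 0.0705, 0.0912 and 0.858 in Csf1r-positive cells.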

Other observations

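Tumor cells under both thresholds (529, 452, 465 and 598 in libraries 2 to 5) carried the highest Pdcd1lg2 levels of the 3 tumor classes, at 0.255, 0.215, 0.277 and 0.264 counts, with Cd274 at 2.77, 2.53, 2.49 and 3.05. They are a mixture: dendritic markers summed to 2.69 to 4.04 counts and B-cell markers to 0.781 to 10.7. The neutrophil list summed to 67.6 to 99.3, but it includes S100a8 and S100a9, the genes that set the neutrophil-like threshold. Its sum depends on that threshold, so it is not compared with the other sums or read as a sign of neutrophils. The part of the mixed cell types in the Pdcd1lg2 and Cd274 levels was not tested.

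Csf1r-positive tumor cells also varied with Ly6c2, a gene of inflammatory monocytes, and Arg1, arginase. Of the 220 cells with at least 5 Ly6c2 counts 37.3% held Cd274, compared with 53.8% of the other 3591, and of the 415 cells with at least 5 Arg1 counts 64.1% held Cd274 and 15.9% Cd40, compared with 51.5% and 23.7% of the other 3396. Libraries were pooled here and no test was run.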
